A study of Danio rerio with 8 samples.

Results

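The Hox genes were followed as a set in zebrafish embryos depleted of Tbx5a, with and without a miR-19a mimic. Members were the probes whose accession maps to a current symbol made of hoxa, hoxb, hoxc or hoxd followed by a number. The rule uses names only, but the set was chosen with earlier results of these data known. The rule found 115 probes of 47 genes among 39162 probes and 12792 named genes. A RefSeq table holds 49 Hox genes, and no probe matched hoxc10a or hoxc11b. Another 7143 probes (18.2% of all) carry Ensembl transcript accessions that could not be paired with a symbol here. Some of them may read Hox genes, so the set is not complete. A gene without a call is one without a call among its matched probes. The authors' list of putative miR-19 targets holds hoxa9b and hoxc6b entries on Ensembl transcripts, higher in Tbx5a-depleted embryos and lower with the mimic. Neither of these Ensembl entries was among the probes matched here. The list also holds hoxc6b and hoxc1a on RefSeq transcripts, with the same directions. Probes of both RefSeq transcripts were matched here. Members were grouped by paralogue number into anterior genes (groups 1 to 4, 36 probes of 14 genes), middle genes (groups 5 to 8, 30 probes of 12 genes) and posterior genes (groups 9 to 13, 49 probes of 21 genes).

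Hox genes encode homeodomain transcription factors that give cells their position along the head-to-tail axis. They lie in clusters, and genes of low paralogue number are switched on earlier and reach further forward than those of high number, so that anterior genes mark the hindbrain and pharyngeal arches, middle genes the trunk, and posterior genes the tail and the outer part of the fin buds. The extra genome duplication of teleosts left zebrafish with a and b copies of several members. In mice, Hox proteins of groups 4 and 5 act on the Tbx5 gene in the forelimb field.

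Each of the 8 arrays held RNA from a pool of 50 whole wild-type AB embryos collected 24 h post fertilisation. All embryos had received 1.5 ng of a morpholino, an antisense oligonucleotide, and 0.25 ng of a microRNA mimic at the 1-cell stage. MO-Ct embryos had the control morpholino and the control mimic miR-Ct (n = 2 arrays), MO-Tbx5a embryos the morpholino against the start of tbx5a translation and miR-Ct (n = 3), and MO-Tbx5a+miR-19a embryos the tbx5a morpholino and the miR-19a mimic (n = 3). Every embryo was thus injected with oligonucleotides, and an uninjected group was not analysed here. In the third group the treatment field gives MO-19a, a morpholino, although sample titles and design text give the mimic, which was taken as right here. The design asks what Tbx5a depletion changes and whether the mimic moves it back. The morpholino acts on translation and no probe matched tbx5a, so the depletion itself was not measured. Nothing in the labels says that the pools came from separate clutches, so the p-values measure the spread between these pools only. RNA was taken from whole embryos, where fewer cells of a type and less RNA per cell cannot be told apart.

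Median log2 values ran from 7.77 to 7.80 on the 8 arrays. Per the labels, 200 ng of RNA was labelled with one kit for MO-Ct and MO-Tbx5a and 0.5 ug with another for MO-Tbx5a+miR-19a, so kit and group cannot be told apart in comparisons with the third group. Of the 115 Hox probes, 114 were well above background on each of 3 scans of the MO-Tbx5a+miR-19a samples and 0 were saturated. Tissue markers were read as well. In MO-Tbx5a against MO-Ct 7 of 11 skeletal muscle probes were called lower (range of mean log2 value per array 15.3 to 15.4 in MO-Ct and 14.5 to 14.7 in MO-Tbx5a), 5 of 8 notochord probes were called higher (11.5 to 11.7 and 12.1 to 12.2), 3 of 9 tailbud probes were called higher (8.05 to 8.26 and 8.42 to 8.94), 3 of 8 pectoral fin bud probes were called lower (9.11 to 9.23 and 8.70 to 8.93) and 0 of 6 neural probes were called (11.7 to 11.9 and 11.8 to 12.1). Of the other lists, 3 of 5 heart probes were called higher, and 6 of 10 lens and 2 of 3 blood probes lower. Epidermis had 3 higher and 9 lower of 20, and neural crest 1 higher and 3 lower of 10. Over all probes 38.4% were called (18.7% higher and 19.6% lower). The tailbud calls (33.3%) were all higher and the fin bud calls (37.5%) all lower. Both shares were above that of the array in their own direction, but not above the share called in either direction. Each rests on 3 called probes. The part of these marker values in the Hox results was not tested.

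In Tbx5a-depleted embryos the Hox genes split by position along the axis. Anterior and middle probes were more often higher than lower, the middle ones mainly through group 6, and posterior probes were more often lower. A probe was called at a fold change above 1.3 with p and Benjamini-Hochberg adjusted p under 0.05 in limma, fitted over all probes. In MO-Tbx5a against MO-Ct 53 Hox probes were called, 24 higher and 29 lower, which is 46.1% of them where 38.4% of all probes were called (18.7% higher and 19.6% lower). The share called over the whole set was not far from that of the array. Among anterior probes 10 were higher and 5 lower (27.8% and 13.9%), among middle probes 9 were higher and 3 lower (30% and 10%), and among posterior probes 5 were higher and 21 lower (10.2% and 42.9%). The median change (log2, MO-Tbx5a minus MO-Ct) was 0.26 for anterior, 0.05 for middle and -0.20 for posterior probes beside 0.005 for all probes.

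**Figure D1:**
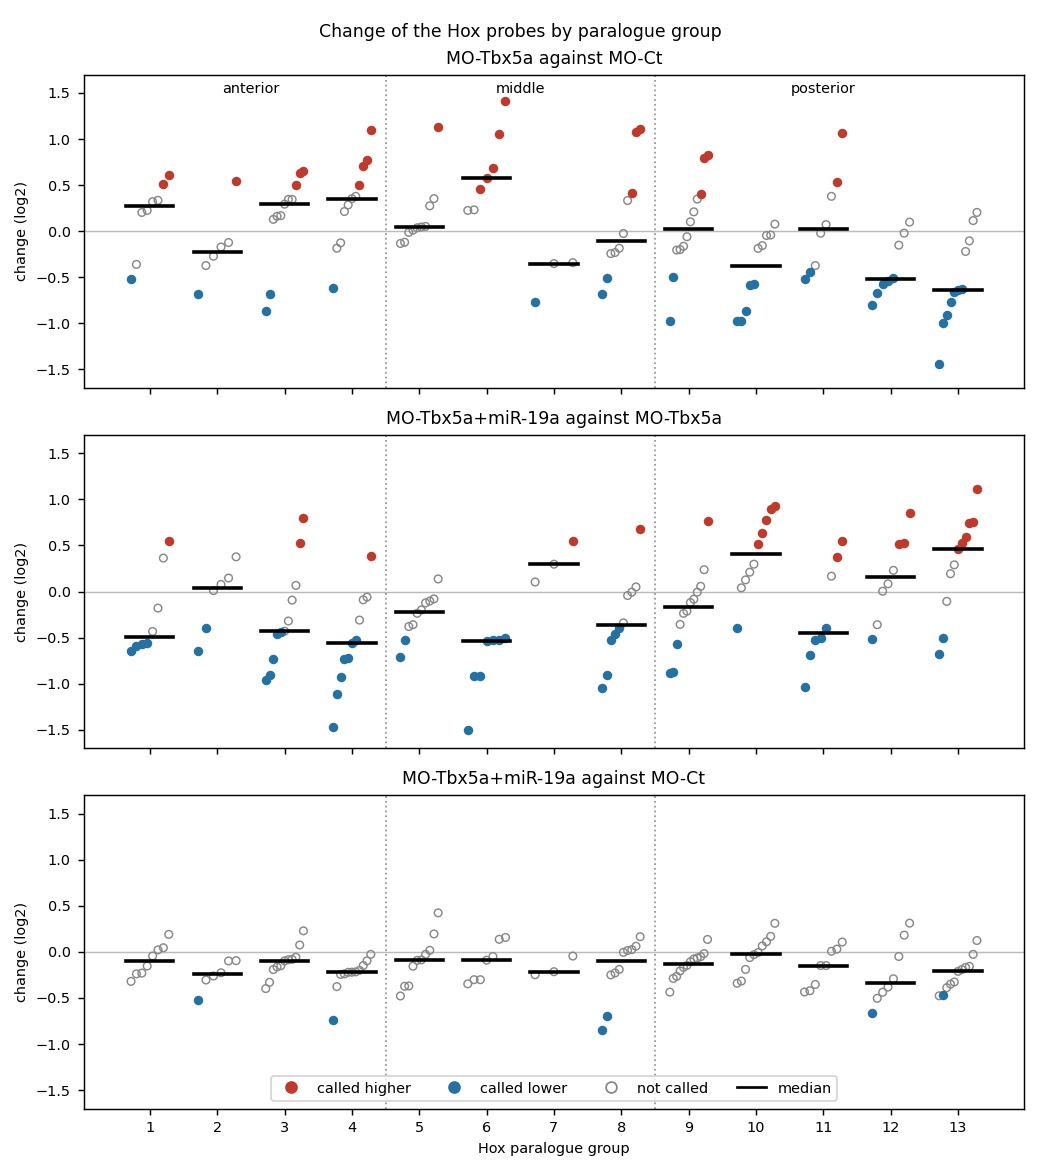
Change of each Hox probe (log2, vertical axis) by paralogue group (horizontal axis, 1 to 13), in 3 panels for the 3 comparisons. Filled points are called probes (red higher, blue lower), open points are not called and bars are medians. In MO-Tbx5a against MO-Ct no probe of groups 10, 12 and 13 was called higher, and in the panel of the mimic group versus MO-Ct 6 probes were called lower and 0 higher.

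Leaving out each array in turn kept 14 of the 24 higher calls and 16 of the 29 lower calls in every one of the 8 fits. The MO-Ct arrays decided most. Without MO-Ct replicate 2 the calls were 6 higher and 4 lower for anterior, 7 and 2 for middle and 6 and 12 for posterior probes, with 25.9% of all probes called. Without MO-Ct replicate 1 they were 9 and 5, 5 and 2, and 4 and 14, with 30.7% of all probes called. With 1 MO-Ct array left, that array is assumed to vary like the other groups.

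Within the posterior class the fall lay at its far end. Groups 10, 12 and 13 had 5 of 10, 5 of 8 and 7 of 11 probes lower and 0 higher, and their median changes were -0.38, -0.52 and -0.64. Group 9, with 3 probes higher and 2 lower of 12, and group 11, with 2 higher and 2 lower of 8, went both ways, with medians of 0.02 and 0.03. Group 6 stood at the other end, since 5 of its 7 probes were higher and 0 lower, with a median of 0.57. In group 5 1 of 10 probes was higher and 0 lower, in group 7 0 of 3 higher and 1 lower, and in group 8 3 of 10 higher and 2 lower. Their medians were 0.04, -0.35 and -0.105. Thus 5 of the 9 higher calls of the middle class lay in group 6. Over all probes 18.7% were higher and 19.6% lower. Leaving out MO-Ct replicate 1 left 3 of 10 lower in group 10 and 3 of 7 higher in group 6, and leaving out MO-Ct replicate 2 left 2 of 8 and 4 of 11 lower in groups 12 and 13.

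By cluster, lower calls lay mainly in the posterior parts of hoxda, hoxab and hoxcb. Of the 13 posterior hoxda probes, which cover hoxd9a to hoxd13a, 9 were lower and 1 higher, with a median of -0.52, but leaving out MO-Ct replicate 1 left 4 of these lower calls, leaving out MO-Ct replicate 2 left 2, and leaving out MO-Tbx5a replicate 3 left 5. The hoxab cluster had 7 of 13 probes lower and 2 higher, and the 4 probes of hoxcb were all called, 1 higher and 3 lower (1 lower without MO-Ct replicate 2). In hoxca 6 of 27 were higher and 2 lower, in hoxba 7 of 28 and 4, in hoxbb 2 of 10 and 1, and in hoxaa 2 of 12 and 1. Across the 47 genes, with the mean change over a gene's probes, Spearman's rho of change with paralogue number was -0.48, and within clusters it ran from -0.71 over the 7 hoxda genes and -0.59 over the 10 hoxca genes to 0.04 over the 7 hoxaa genes. These are descriptions across genes of the same arrays. The change of the 115 probes was also related to their mean signal (rho = 0.41, beside -0.38 with paralogue number). The signal of a probe depends on its own sequence as well as on its transcript, and is used here only to sort probes. Among probes below the Hox median signal of 9.28, posterior probes had 0 higher and 14 lower of 29, middle probes 3 and 1 of 14, and anterior probes 4 and 4 of 14, where 17.1% of all probes in that range were higher and 17.8% lower. At or above it, posterior probes had 5 higher and 7 lower of 20, middle probes 6 and 2 of 16, and anterior probes 6 and 1 of 22, beside 22.2% and 23.6% of all probes. In some genes, among them hoxa2b, hoxb7a, hoxc12a and hoxd3a, the largest fall was in the probe of lowest mean signal. In hoxb8b and hoxd10a it was in the brighter of 2 probes, and such genes were not counted. The part of signal in the split by position was not tested further.

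**Figure D2:**
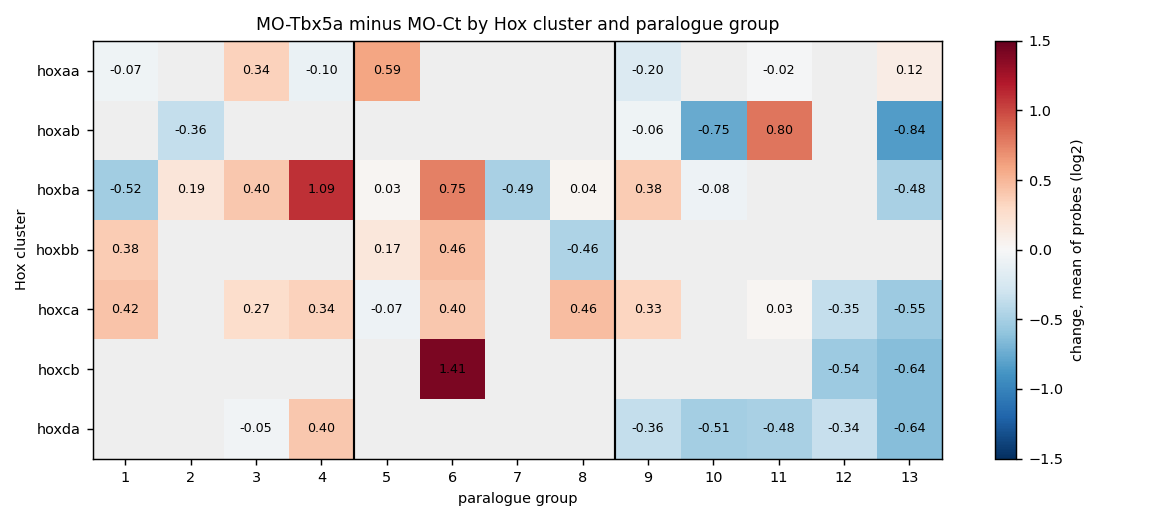
Mean change over a gene's probes (log2, MO-Tbx5a minus MO-Ct, colour and printed value) for the 47 Hox genes, by cluster (rows) and paralogue group (columns). Grey cells hold no gene with a probe and black lines part the anterior, middle and posterior classes. All 5 hoxda genes of groups 9 to 13 lie below 0, and the highest value is 1.41 for hoxc6b.

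Counted by gene, 7 anterior genes had only higher calls (hoxb1b, hoxc1a, hoxb2a, hoxb3a, hoxb4a, hoxc4a, hoxd4a), 2 only lower calls (hoxb1a, hoxa2b), 2 had both (hoxd3a, hoxa4a) and 3 had none (hoxa1a, hoxa3a, hoxc3a). With each gene read by its probe of highest mean signal alone, 5 anterior genes were higher and 1 lower, 5 middle genes were higher and 1 lower, and 3 posterior genes were higher and 8 lower. Counts by gene, here and below, were not made over all genes of the array. A gene with more probes can also collect more calls, so these counts cannot be read as particular to Hox genes.

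Among anterior genes the rises were led by group 4, whose members mark the hindbrain-spinal cord border and the front of the spinal cord. The hoxb4a probe (A_15_P113899) read 9.0 and 9.14 on the MO-Ct arrays, 10.26, 10.18 and 10.05 on the MO-Tbx5a arrays and 8.52, 8.92 and 8.64 on the MO-Tbx5a+miR-19a arrays (log2 values). The MO-Tbx5a arrays stood above all others, and the MO-Tbx5a+miR-19a arrays lay below MO-Ct without overlap. The rise over MO-Ct was 2.13-fold (log2 change 1.09 ± 0.14, SE, adjusted p = 9.16e-05). For hoxc4a, the probe A_15_P659206 read 7.03 and 7.38 in MO-Ct, 7.94, 8.21 and 7.79 in MO-Tbx5a and 7.15, 7.02 and 7.0 in MO-Tbx5a+miR-19a, a 1.71-fold rise over MO-Ct (adjusted p = 0.00149). Its other 3 probes changed by -0.13, 0.35 and 0.38 and were not called. The hoxd4a probe A_15_P130961 gave 8.59 and 8.55, then 9.35, 9.39 and 9.10, then 8.65, 8.56 and 8.42 in the same order, 1.64-fold higher than MO-Ct (adjusted p = 0.000996), and its other 2 probes, at 0.21 and 0.29, were not called. For all 3 genes the MO-Tbx5a arrays of these probes overlapped with neither other group, and each call held in all 8 fits that left out an array.

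Group 3 was divided. The hoxb3a probe with the highest mean signal of the anterior class (A_15_P150441) read 12.94 and 12.78 in MO-Ct, 13.69, 13.51 and 13.28 in MO-Tbx5a and 12.73, 12.55 and 12.31 in MO-Tbx5a+miR-19a. It rose 1.55-fold over MO-Ct with no overlap (adjusted p = 0.00616), and without MO-Ct replicate 2 the call was lost at a change of 0.55. The second hoxb3a probe stood at 0.17 without a call. All 3 probes of hoxc3a and the probe of hoxa3a stood at 0.16 to 0.35 without a call. Within hoxd3a, which like hoxb3a acts in the caudal hindbrain, the probe A_15_P655616 read 6.96 and 7.07 in MO-Ct, 6.20, 6.05 and 6.21 in MO-Tbx5a and 7.25, 6.80 and 6.82 in MO-Tbx5a+miR-19a. This was a 1.82-fold fall (adjusted p = 0.000646) in a gene with 2 other probes called higher, and it held in all 8 fits that left out an array. Gene models overlap in these clusters (hoxb3a with hoxb4a, hoxb5a and hoxb6a, hoxd3a with hoxd4a, hoxa3a with hoxa4a and hoxa5a, hoxc3a with hoxc4a to hoxc9a, hoxb1b with hoxb5b and hoxb6b), so a probe of one can read transcripts of another, and the values of these genes are uncertain to that extent.

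Groups 1 and 2 pattern the hindbrain segments and the pharyngeal arches. The single hoxb1a probe, of a gene that gives identity to a middle hindbrain segment, read 7.74 and 8.0 in MO-Ct, 7.59, 7.36 and 7.11 in MO-Tbx5a and 7.84, 7.47 and 7.84 in MO-Tbx5a+miR-19a. It fell 1.43-fold (adjusted p = 0.0256), and its call was lost without MO-Ct replicate 2 (change -0.39), MO-Tbx5a replicate 2 (-0.52) or MO-Tbx5a replicate 3 (-0.40). Its duplicate hoxb1b went the other way, with 1 of 3 probes called higher at 0.61 (adjusted p = 0.0107), a call lost without MO-Ct replicate 2 at 0.53. Both probes of hoxc1a lay above MO-Ct without overlap, at 0.34 and 0.51, and the second was called. The hoxa1a probes stood at 0.23 and -0.36 without a call. In hoxa2b, which sets the identity of the second pharyngeal arch, the probe A_15_P654871 read 5.99 and 5.98 in MO-Ct, 5.35, 5.28 and 5.28 in MO-Tbx5a and 5.65, 5.58 and 5.81 in MO-Tbx5a+miR-19a, a 1.60-fold fall (adjusted p = 0.00067). The values of that probe are near the lower end of the scale, where changes can be compressed. The 3 brighter hoxa2b probes changed less, by -0.12 to -0.37, without a call. The partner of hoxa2b in that arch, hoxb2a, had 1 of 2 probes called higher at 0.55.

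Middle genes held the largest single rise of the Hox set. The hoxc6b probe (A_15_P105352) read 9.04 and 8.88 in MO-Ct, 10.43, 10.38 and 10.31 in MO-Tbx5a and 8.95, 9.21 and 8.45 in MO-Tbx5a+miR-19a. The MO-Tbx5a arrays stood 2.66-fold above MO-Ct (log2 change 1.41 ± 0.18, adjusted p = 9.53e-05), and the other groups overlapped. The remaining group 6 genes, which mark the front of the trunk, had higher calls too: both probes of hoxb6a (0.45 and 1.05), 1 of 2 of hoxb6b (0.69) and 1 of 2 of hoxc6a (0.57). The smaller hoxb6a call was lost without either MO-Ct array, MO-Tbx5a replicate 1 or MO-Tbx5a replicate 2 (changes from 0.32 to 0.60 over the 8 fits), and the hoxc6a call without MO-Ct replicate 1 (0.54). The hoxa5a probe A_15_P130816 read 8.26 and 8.16 in MO-Ct, 9.31, 9.19 and 9.53 in MO-Tbx5a and 8.76, 8.63 and 8.51 in MO-Tbx5a+miR-19a, a 2.19-fold rise (adjusted p = 5.85e-05). Here the MO-Tbx5a+miR-19a arrays lay between the other groups and overlapped with neither, while the second hoxa5a probe changed by 0.05. None of the 8 probes of hoxb5a, hoxb5b and hoxc5a was called (changes -0.13 to 0.35). In zebrafish hoxb5b acts on the heart field downstream of retinoic acid.

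In group 8 the genes differed. The hoxc8a probe A_15_P660166 read 7.77 and 7.68 in MO-Ct, 8.85, 8.83 and 8.83 in MO-Tbx5a and 7.67, 8.08 and 7.61 in MO-Tbx5a+miR-19a, a 2.16-fold rise (adjusted p = 0.000101). The gene's probe of highest mean signal stood at -0.03. Its other 3 probes, that one included, changed by -0.03, 0.33 and 0.41. The last of these was called, and lost its call without either MO-Ct array or without MO-Tbx5a replicate 2 or 3 (changes from 0.39 to 0.43 over the 8 fits). For hoxb8b the probe A_15_P166861 read 9.76 and 9.67, then 8.91, 9.13 and 9.05, then 9.86, 9.59 and 9.68, a 1.61-fold fall (adjusted p = 0.0011), beside -0.24 for its other probe. In group 7, where hoxb7a is the one gene, the probe A_15_P130851 read 6.83 and 6.42 in MO-Ct, 5.90, 5.97 and 5.71 in MO-Tbx5a and 6.28, 6.41 and 6.54 in MO-Tbx5a+miR-19a, a 1.70-fold fall (adjusted p = 0.00145). Its MO-Tbx5a values are also near the lower end of the scale. The other 2 hoxb7a probes, of higher mean signal, lay below MO-Ct without overlap, at -0.34 and -0.35, and were not called.

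Of the posterior genes, 11 had only lower calls (hoxa10b, hoxd10a, hoxd11a, hoxc12a, hoxc12b, hoxd12a, hoxa13b, hoxb13a, hoxc13a, hoxc13b, hoxd13a). Another 3 had only higher calls (hoxb9a, hoxc9a, hoxa11b), 1 both (hoxd9a) and 6 none among their matched probes (hoxa9a, hoxa9b, hoxb10a, hoxa11a, hoxc11a, hoxa13a). For hoxa9b this rests on 1 probe, and the authors list an Ensembl entry of that gene as higher. The largest fall of the Hox set was in hoxb13a, a gene of the tail end. Its probe A_15_P130866 read 6.92 and 7.20 in MO-Ct, 5.58, 5.95 and 5.34 in MO-Tbx5a and 6.69, 6.73 and 6.78 in MO-Tbx5a+miR-19a. The fall was 2.71-fold (log2 change -1.44 ± 0.17, adjusted p = 4.72e-05), and the MO-Tbx5a+miR-19a arrays lay between the other groups with no overlap. The MO-Tbx5a values of A_15_P130866 are near the lower end of the scale, where changes can be compressed. The other 2 hoxb13a probes, at 0.20 and -0.22, were not called, and the former has the highest mean signal of the gene. The latter (A_15_P695016) was well above background on 0 of the 3 scans, so the fall was seen in 1 of the 2 hoxb13a probes above background there. For hoxc13a, another gene of the tail, the probe A_15_P130936 read 9.99 and 9.86 in MO-Ct, 8.95, 9.05 and 8.80 in MO-Tbx5a and 9.54, 9.53 and 9.30 in MO-Tbx5a+miR-19a. It fell 1.99-fold (adjusted p = 0.000108) and was intermediate with the mimic, again without overlap. The second hoxc13a probe, of higher mean signal, changed by -0.11.

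Genes of groups 10 to 13 in the hoxab and hoxda clusters act in the trunk, tail and outer fin bud, and in zebrafish hoxa13a, hoxa13b and hoxd13a are needed for the rays of the fins. All 4 probes of hoxa10b were called lower (-0.58, -0.58, -0.87 and -0.98). The calls of the first pair were lost without MO-Ct replicate 1 (-0.46 and -0.59), and 1 of them also without MO-Ct replicate 2. The probe A_15_P654876 of that gene read 8.52 and 8.50 in MO-Ct, 7.70, 7.67 and 7.23 in MO-Tbx5a and 8.34, 8.04 and 8.13 in MO-Tbx5a+miR-19a, a 1.97-fold fall (adjusted p = 0.000391). Both hoxa13b probes fell, by 0.77 and 0.91 on the log2 scale, and each held its call in all 8 fits that left out an array. The single probe of its duplicate hoxa13a changed by 0.12 and was not called. Both hoxd13a probes were called lower (-0.62 and -0.66). The probe A_15_P101157 read 7.96 and 8.82 in MO-Ct and 7.76, 8.12 and 7.42 in MO-Tbx5a, so that the groups overlapped (adjusted p = 0.0486), and it kept its call in 2 of the 8 fits that left out an array, with changes from -1.05 without MO-Ct replicate 1 to -0.19 without MO-Ct replicate 2. Of the 53 called Hox probes it was the only one whose groups overlapped, a count not made over all called probes of the array. The other hoxd13a probe lost its call without either MO-Ct array, at changes from -0.45 to -0.84 over the 8 fits. For hoxd10a the probe A_15_P162616 read 8.89 and 9.21 in MO-Ct, 8.18, 8.47 and 7.59 in MO-Tbx5a and 8.91, 8.76 and 8.91 in MO-Tbx5a+miR-19a, a 1.96-fold fall (adjusted p = 0.00268), and its other probe stood at -0.05. Both probes of hoxd11a were called lower, at -0.44 and -0.52, and both calls were lost without either MO-Ct array or MO-Tbx5a replicate 3 (changes between -0.30 and -0.61 over the fits).

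Group 12 had lower calls in each cluster that holds it, though not in every probe. In hoxc12a 1 of 2 probes was called lower (-0.81, the other 0.10), in hoxc12b both (-0.58 and -0.51) and in hoxd12a 2 of 4 (-0.67 and -0.54, the others -0.02 and -0.15). The uncalled hoxc12a probe and the hoxd12a probe at -0.02 have the highest mean signal of their genes. The hoxc12a call and the larger hoxc12b call held in all 8 fits that left out an array. Without MO-Ct replicate 2 both hoxd12a calls and the smaller hoxc12b call were lost, the larger hoxd12a call also without MO-Ct replicate 1 and the hoxc12b call also without MO-Tbx5a replicate 3. The single hoxc13b probe, at -0.64, lost its call without MO-Ct replicate 2 only, at -0.44. Of the genes without a call, hoxa9a, hoxa9b and hoxb10a stood between -0.21 and 0.08, hoxa11a at -0.02 and the 3 hoxc11a probes at 0.38, 0.07 and -0.37.

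Posterior rises came from group 9 and from hoxa11b. The hoxa11b probe A_15_P130836 read 10.57 and 10.35 in MO-Ct, 11.45, 11.53 and 11.61 in MO-Tbx5a and 10.50, 10.61 and 10.36 in MO-Tbx5a+miR-19a, a 2.10-fold rise (adjusted p = 6.01e-05), and its second probe was also higher at 0.54. For hoxb9a the probe A_15_P134123 read 10.95 and 10.92, then 11.82, 11.80 and 11.68, then 10.81, 11.09 and 10.75, 1.78-fold higher than MO-Ct (adjusted p = 0.000349). The hoxc9a probe A_15_P625751, the posterior probe of highest mean signal, read 11.30 and 11.02, then 11.97, 11.93 and 11.97, then 11.12, 11.29 and 10.84, 1.74-fold higher (adjusted p = 0.001). In these 3 probes the MO-Tbx5a arrays lay above both other groups, which overlapped with each other. The other 2 probes of hoxb9a (0.10 and 0.21) and of hoxc9a (-0.16 and 0.35) were not called.

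**Figure D3:**
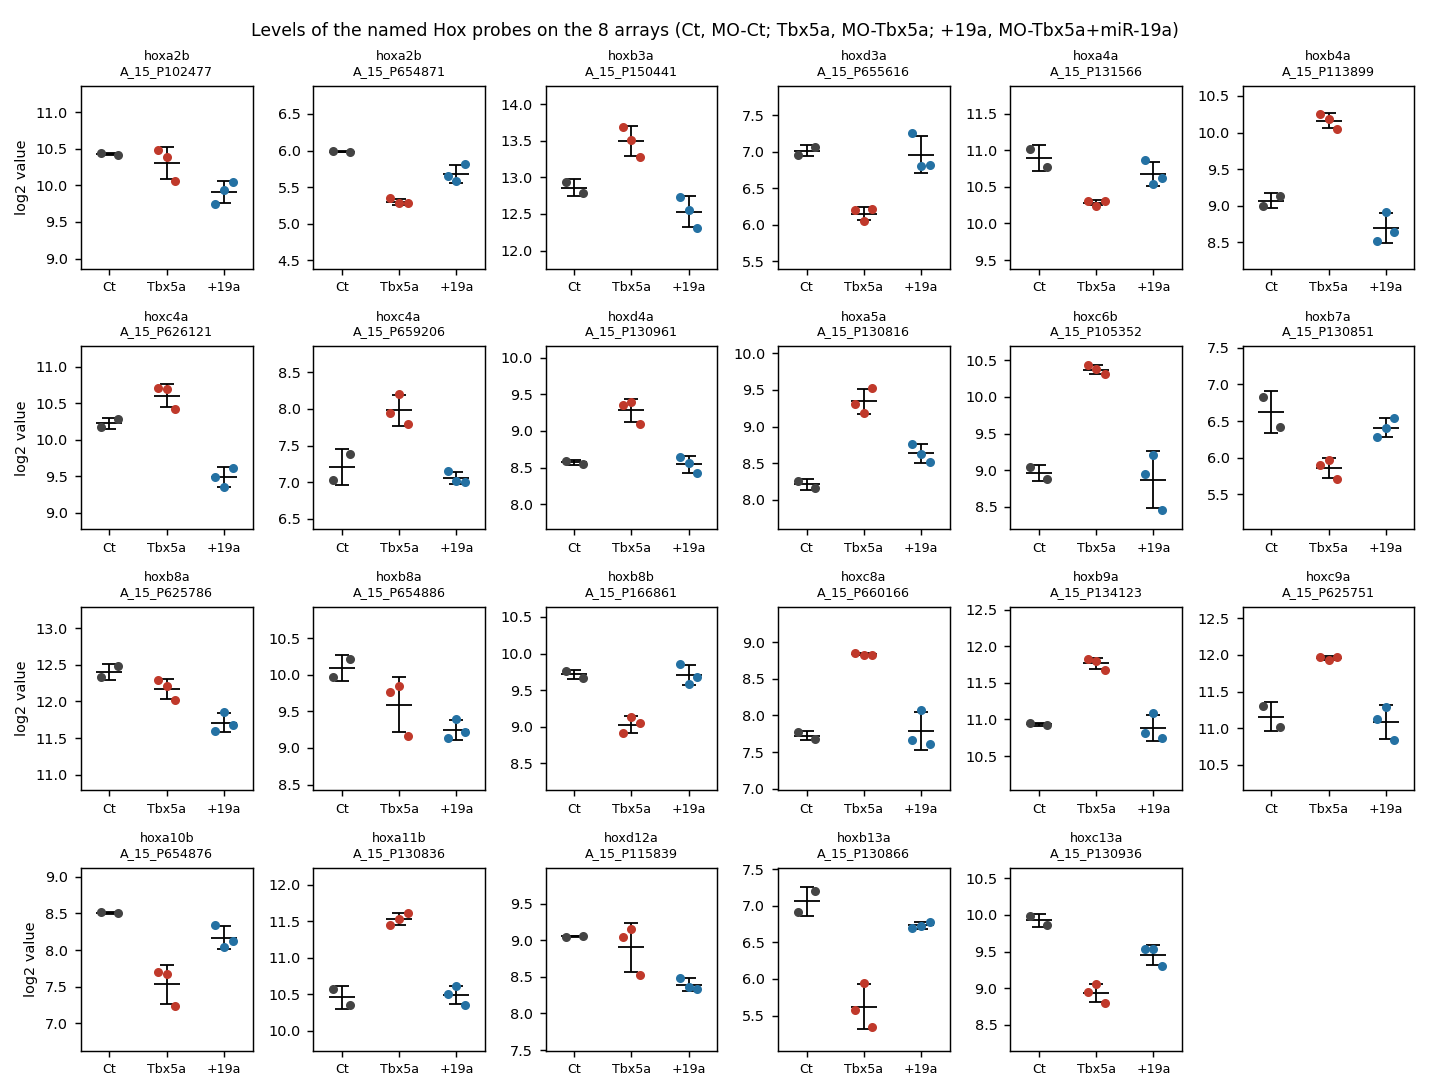
Log2 values of the 23 Hox probes singled out by the naming rule, ordered by paralogue group, on the 2 MO-Ct (grey), 3 MO-Tbx5a (red) and 3 MO-Tbx5a+miR-19a (blue) arrays. Points are arrays, bars are means and error bars are SDs, and every panel spans 2.5 log2 units. In hoxb4a, hoxc6b and hoxa11b the MO-Tbx5a arrays stand above the other groups, and in hoxb13a and hoxc13a below them.

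Probes of the same gene did not always move together, and this limits what can be said of a gene. For 4 of the 13 Hox transcripts with at least 2 called probes (30.8%) the calls went both ways in MO-Tbx5a against MO-Ct. Over all RefSeq mRNAs of the array it was 27.9% (636 of 2280), near the Hox share. In hoxd3a 2 probes were higher (0.66 and 0.51), 2 lower (-0.86 and -0.68) and 1 not called (0.13). Both higher hoxd3a calls were lost without MO-Ct replicate 2 (0.49 and 0.49). In hoxa4a the 3 probes stood at 0.50, -0.19 and -0.61, and the higher call was lost without MO-Ct replicate 1 (0.42). The lower hoxa4a probe A_15_P131566 read 11.02 and 10.77 in MO-Ct, 10.30, 10.24 and 10.31 in MO-Tbx5a and 10.86, 10.54 and 10.62 in MO-Tbx5a+miR-19a, a 1.53-fold fall without overlap (adjusted p = 0.00299). The 4 hoxb8a probes ran from 1.07 to -0.51, and the hoxd9a probes stood at 0.40, -0.50 and -0.97, of which the last was called in all 8 fits that left out an array. The higher hoxd9a call was lost without MO-Ct replicate 1 or MO-Tbx5a replicate 1, and the smaller fall without either MO-Ct array or MO-Tbx5a replicate 3. The hoxb8a probe A_15_P131591 rests in part on 1 array, since it read 11.02 and 10.95 in MO-Ct and 11.64, 11.62 and 12.91 in MO-Tbx5a. Its change was 0.65 without MO-Tbx5a replicate 3, where it was still called, and the call was lost without either MO-Ct array. The lower hoxb8a probe (A_15_P654886) read 9.97 and 10.22, then 9.77, 9.84 and 9.16, then 9.13, 9.40 and 9.22, and was called lower at -0.51 (adjusted p = 0.0466). It was lost in 5 of those 8 fits, with -0.29 without MO-Tbx5a replicate 3, -0.38 without MO-Ct replicate 2 and -0.63 without MO-Ct replicate 1.

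**Figure D4:**
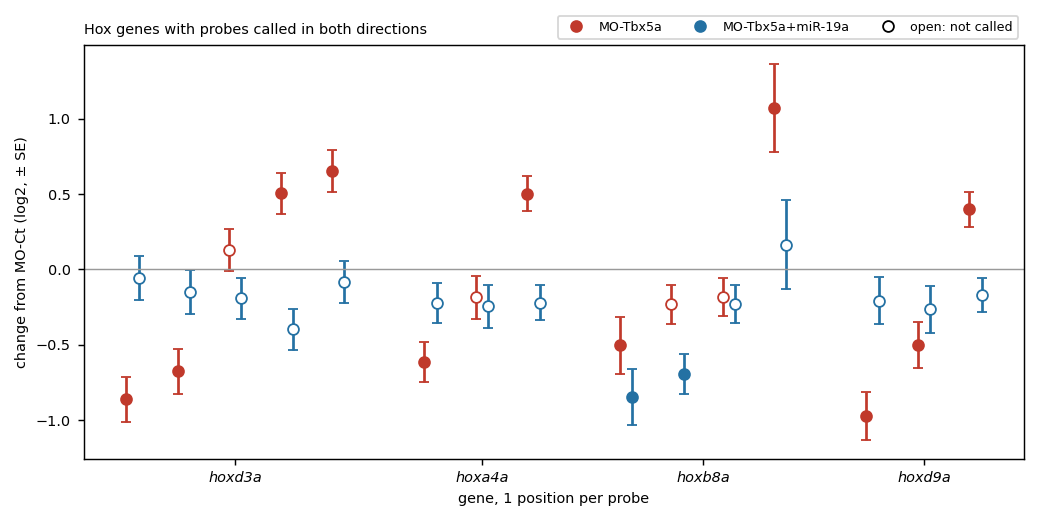
Change from MO-Ct (log2, vertical axis, error bars SE) of every probe of hoxd3a, hoxa4a, hoxb8a and hoxd9a, the 4 genes with probes called in both directions, in MO-Tbx5a (red) and MO-Tbx5a+miR-19a (blue). Filled points are called and open points are not. Red points of the same gene lie on both sides of 0, from -0.97 to 0.40 in hoxd9a, and the filled blue points are the 2 hoxb8a probes called lower.

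For 10 genes both the a and the b copy had probes. With the mean change over probes in MO-Tbx5a against MO-Ct, the copies had opposite signs in 4 pairs, and lay both above 0 in 3 and both below 0 in 3. The widest gaps were in hoxc6a and hoxc6b (0.40 and 1.41), hoxa13a and hoxa13b (0.12 and -0.84), hoxb1a and hoxb1b (-0.52 and 0.38), and hoxa11a and hoxa11b (-0.02 and 0.80). In hoxc12 (-0.35 and -0.54) and hoxc13 (-0.55 and -0.64) both copies lay below 0. The number of probes per copy ranged from 1 to 4, and duplicate genes can share sequence, so a probe of one copy can read the other.

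With the miR-19a mimic, anterior and middle probes were more often lower than higher relative to MO-Tbx5a, and posterior probes went both ways. This comparison uses the same 3 MO-Tbx5a arrays with the opposite sign, so opposite directions in both comparisons can arise from those arrays alone, and its values are given side by side with the first. In MO-Tbx5a+miR-19a versus MO-Tbx5a 67 Hox probes were called, 23 higher and 44 lower, 58.3% where 42.2% of all probes were called (20.2% higher and 21.9% lower). Anterior probes had 4 higher and 18 lower of 36, middle probes 2 and 14 of 30, and posterior probes 17 and 12 of 49. The medians were -0.43, -0.37 and 0.13, beside -0.02 for all probes. Markers moved in this comparison as well: 4 of 6 neural probes were lower and all 6 lay below 0 (median -0.47, mean log2 value per array 11.8 to 12.1 in MO-Tbx5a and 11.4 to 11.5 with the mimic), 8 of 11 skeletal muscle probes were higher and 2 lower (14.45 to 14.73 and 15.02 to 15.36), and 9 of 20 epidermis probes were higher and 2 lower (13.2 to 13.6 and 13.7 to 13.9). Of the other lists, 2 of 3 blood probes were higher, and 3 of 8 notochord and 1 of 5 heart probes lower. Lens had 2 higher and 5 lower of 10, and neural crest 4 higher and 1 lower of 10. Tailbud had 1 higher and 3 lower of 9, and pectoral fin bud 2 higher and 2 lower of 8. The part of the markers in the Hox values was not tested. Leaving out each array in turn kept 18 of the 23 higher and 36 of the 44 lower calls in all 8 fits. Without MO-Tbx5a replicate 3 the posterior median was 0.04, with 13 probes higher and 15 lower.

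All 7 group 6 probes were called lower with the mimic (-0.50 to -1.50), led by hoxc6b at 2.83-fold lower (adjusted p = 1.54e-05). The hoxb4a probe was 2.77-fold lower (log2 change -1.47 ± 0.12, adjusted p = 3.21e-06), and hoxc4a (A_15_P626121) 2.17-fold lower (adjusted p = 1.46e-05). That hoxc4a probe read 10.17 and 10.28 in MO-Ct, 10.70, 10.69 and 10.42 in MO-Tbx5a and 9.49, 9.35 and 9.62 in MO-Tbx5a+miR-19a, so the mimic group was below both others. Among posterior genes hoxa11b fell 2.06-fold in A_15_P130836 (adjusted p = 1.72e-05), and hoxb13a rose 2.16-fold in A_15_P130866 (adjusted p = 6.82e-05), with its probe A_15_P625716 called lower at -0.68. All 4 hoxa10b probes were called higher (0.51 to 0.93), as were both of hoxa13b (0.60 and 0.75) and both of hoxd13a (0.47 and 0.75). The smaller hoxd13a call was lost in 6 of the 8 fits that left out an array (0.25 to 0.64), and that of 1 hoxa10b probe without MO-Tbx5a replicate 3 or MO-Tbx5a+miR-19a replicate 1 (0.36 to 0.60 over the fits). In 2 of the 67 called Hox probes the arrays of the groups overlapped, A_15_P626806 of hoxb1b and A_15_P628226 of hoxd13a. Overlap was not counted over all called probes here either. Probes called in both directions occurred in 6 of 20 Hox transcripts with at least 2 called probes (30.0%, beside 27.5% of all RefSeq mRNAs): hoxd3a, hoxa4a, hoxd9a, hoxc11a, hoxd12a and hoxb13a. By gene, 23 had only lower calls, 11 only higher calls and 7 none among their matched probes, the last being hoxb1a, hoxa3a, hoxb5b, hoxc5a, hoxa9a, hoxa9b and hoxc13b. The hoxa9b reading again rests on 1 probe, and the authors list an Ensembl entry of that gene as lower with the mimic. Of the 12 genes with no call in the first comparison, 7 had calls here: hoxa1a (0.55 in 1 of 2 probes), hoxc3a (-0.44 and -0.46 in 2 of 3), hoxb5a (-0.53 in 1 of 3), hoxb10a (-0.39 in 1 of 4), hoxa11a (-0.40), hoxc11a (-0.53, -0.51 and 0.38) and hoxa13a (-0.50). The calls of hoxc3a, hoxb10a and hoxa11a and the higher hoxc11a call were each lost in 3 or 4 of the 8 fits. For hoxb10a, hoxa11a and 1 hoxc3a probe the MO-Tbx5a arrays concerned were replicates 1 and 2, for the other hoxc3a probe replicate 3, and for hoxc11a replicates 1 and 3, and each was also lost without 1 or 2 of the mimic arrays.

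Against MO-Ct, embryos with morpholino and mimic differed little in Hox genes, and what was called was lower. With MO-Tbx5a+miR-19a set against MO-Ct, 0 Hox probes were called higher and 6 lower, 5.22% where 11.2% of all probes were called (5.24% higher and 5.95% lower). Class medians were -0.18 for anterior, -0.09 for middle and -0.16 for posterior probes, beside -0.03 for all probes, and 90 of the 115 Hox probes (78.3%) lay below 0, where 53.6% of all probes did. The 6 neural marker probes stood below MO-Ct in this comparison too (median -0.42, 1 called lower). Their mean log2 value per array was 11.4 to 11.5 with the mimic and 11.7 to 11.9 in MO-Ct. Of the other lists, 8 of 10 lens probes (median -1.14), 2 of 11 skeletal muscle and 1 of 8 pectoral fin bud probes were lower. Higher were 3 of 8 notochord (median 0.415) and 2 of 5 heart probes. No blood, epidermis, tailbud or neural crest probe was called. The part of the markers in the Hox values was not tested. The Hox calls depended on single arrays, and so did the calls over all probes. Hox calls numbered 2 when MO-Tbx5a+miR-19a replicate 1 was left out, with 6.1% of all probes called. They numbered 12 when MO-Tbx5a replicate 3 was (1 higher and 11 lower, with 14.2% of all probes called). Taking out either MO-Ct array left 1 in that group, and calls became fewer among Hox probes and over all probes alike. The anterior, middle and posterior medians were then -0.25, -0.17 and -0.20 with replicate 1 taken out, and -0.11, -0.09 and -0.15 with replicate 2. The loss of calls thus cannot be read as particular to Hox genes. None of the 6 calls held in all 8 fits that left out an array.

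The called probes came from 5 genes. In hoxb8a, a trunk gene, 2 of 4 probes were lower than MO-Ct. The brightest, A_15_P625786, read 12.33 and 12.48 in MO-Ct, 12.29, 12.21 and 12.02 in MO-Tbx5a and 11.60, 11.85 and 11.68 in MO-Tbx5a+miR-19a, 1.62-fold lower with the mimic (adjusted p = 0.00647), and A_15_P654886 was 1.80-fold lower (adjusted p = 0.0145). In A_15_P625786 the mimic group lay below both others, which was also the order in hoxc4a (A_15_P626121, 1.67-fold below MO-Ct, adjusted p = 0.00521). Without MO-Ct replicate 2 these calls were lost at changes of -0.62, -0.72 and -0.68, and that of A_15_P654886 also without MO-Ct replicate 1 (-0.97) or MO-Tbx5a+miR-19a replicate 1 (-0.79). The hoxa2b probe A_15_P102477 read 10.44 and 10.42 in MO-Ct, 10.48, 10.38 and 10.06 in MO-Tbx5a and 9.74, 9.94 and 10.04 in MO-Tbx5a+miR-19a, 1.44-fold lower than MO-Ct (adjusted p = 0.0382). The hoxd12a probe A_15_P115839 read 9.05 and 9.06, then 9.04, 9.15 and 8.52, then 8.49, 8.36 and 8.33, 1.58-fold lower (adjusted p = 0.0253). The hoxc13a probe given above was 1.38-fold lower (adjusted p = 0.0375). The calls of hoxa2b, hoxd12a and hoxc13a were each lost in 5 of the 8 fits, those without either MO-Ct array and without MO-Tbx5a+miR-19a replicate 1 among them. Their changes ran from -0.59 to -0.44 for hoxa2b, from -0.71 to -0.63 for hoxd12a and from -0.53 to -0.39 for hoxc13a over the 8 fits.

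Arrays of the same group were not equally far from MO-Ct. Per array, the median difference of anterior probes from the MO-Ct mean was 0.32, 0.25 and 0.12 in MO-Tbx5a replicates 1 to 3, that of middle probes 0.13, 0.16 and -0.02 and that of posterior probes -0.19, -0.13 and -0.30. MO-Tbx5a replicate 3 was the lowest of its group in 77 of the 115 Hox probes. It was lowest in 23 of 36 anterior, 19 of 30 middle and 35 of 49 posterior probes. In MO-Tbx5a+miR-19a the medians were 0.01, -0.25 and -0.20 for anterior, -0.03, -0.18 and -0.15 for middle and -0.14, -0.13 and -0.21 for posterior probes, and replicate 1 was the highest of its group in 60 of the 115 probes. Each MO-Tbx5a array had a higher anterior than posterior median. Over all probes the medians were 0.005, 0.005 and -0.005 in MO-Tbx5a replicates 1 to 3. Counts of the lowest or highest array were not made over all probes. They cannot be read as particular to Hox genes.

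**Figure D5:**
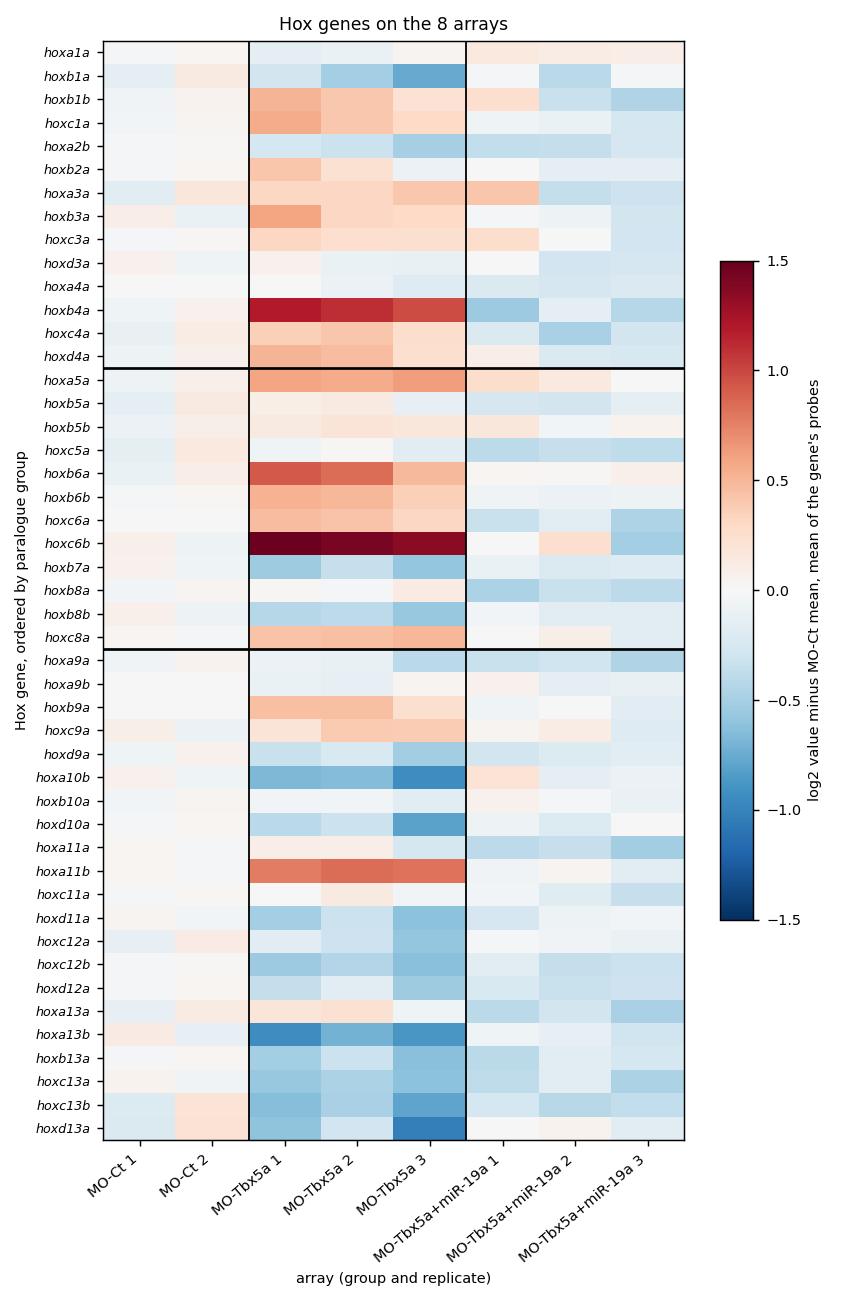
Log2 value of each of the 47 Hox genes on each of the 8 arrays minus the MO-Ct mean, averaged over the gene's probes (colour), with genes ordered by paralogue group from top to bottom and black lines between anterior, middle and posterior genes. The MO-Tbx5a columns are mostly red in the upper part and blue in the lower part. MO-Tbx5a replicate 3 was the lowest of its group in 35 of 49 posterior probes, a count not made over all probes.

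Genes that regulate Hox genes or act with their products were read from the same fit. Cdx factors, which switch on posterior Hox genes, had 2 of 7 probes higher and 2 lower in MO-Tbx5a against MO-Ct (57.1% called, beside 38.4% of all probes). In cdx1a 2 probes were higher (0.89 and 1.32, the latter with 9.44 on MO-Tbx5a replicate 3 and 7.78 and 7.81 on the other MO-Tbx5a arrays) and 1 lower (-0.55), and in cdx4 1 of 2 was lower (-0.77) and was higher than MO-Ct with the mimic (0.57). Both cdx1b probes stood within 0.20 of MO-Ct. The even-skipped homologues lie beside the posterior end of Hox clusters, eve1 next to hoxb13a, evx1 next to hoxa13a and evx2 next to hoxd13a. The eve1 probe fell by 0.82 on the log2 scale, while the 3 evx1 probes (-0.10 to -0.14) and the evx2 probe (0.04) were not called. With the mimic, relative to MO-Ct, evx2 was lower (-0.82), 1 of 3 evx1 probes was higher (0.41) and eve1 stood at -0.09.

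TALE homeodomain proteins of the Pbx, Meis and Pknox families bind DNA together with Hox proteins. Of 35 probes of 12 such genes 11 were higher and 5 lower in MO-Tbx5a against MO-Ct (45.7% called, beside 38.4% of all probes), with a median of 0.11. Higher calls included 2 of 4 pbx4 probes (0.78 and 1.11), the main early Pbx gene of zebrafish, and 2 of 3 meis1b probes (0.50 and 0.76). Lower calls included meis2b (2 of 4 probes, -0.51 and -0.71) and pbx2 (1 of 2, -0.71), and meis1a and pbx1a had calls in both directions. With the mimic 0 of the 35 were higher than MO-Ct and 4 lower, 3 of them the 3 probes of pbx3b (-0.65 to -0.78). The share called, 11.4%, was near the 11.2% of all probes, but these calls were all lower, where 5.95% of all probes were lower. Signals that extend the body axis at the tail also act on Hox genes. They had 5 of 12 probes higher and 0 lower in MO-Tbx5a against MO-Ct (41.7%, median 0.48). Over all probes 38.4% were called in either direction and 18.7% were called higher. The calls were in fgf8a (0.41 and 0.71), wnt3a (1.25), tbxta (0.56) and 1 of 2 tbx16 probes (0.57), and none of the 4 msgn1 probes was called (0.16 to 0.70). This list includes the 9 tailbud marker probes given earlier, so the wnt3a, tbxta and tbx16 calls are the same 3 calls. The gene tbxta is also on the notochord list. The gdf11 probe, of a ligand that in mice promotes the switch from trunk to tail, changed by 0.13 and was lower than MO-Ct with the mimic (-0.46).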

How the data were processed

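Per the labels and methods, 1-colour Agilent arrays were read with Feature Extraction (version 10.7 for MO-Ct and MO-Tbx5a and 9.1 for MO-Tbx5a+miR-19a, whose scan headers give 10.7.3.1). The deposited log2 values, 1 per probe and array, were made by the authors with normexp background correction of median signals and cyclic loess between arrays, and were used as given. Deposited intensity scans existed for the 3 MO-Tbx5a+miR-19a samples. They served for probe accessions and flags only, since same-sample correlations of within-group deviations between scans and log2 values were -0.086, 0.248 and 0.067.

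Accessions were matched to RefSeq symbols, and 24716 of 39162 probes (63.1%) had a symbol, while 7143 on Ensembl transcripts stayed unnamed. limma 3.58.1 in R 4.3.3 (lmFit, eBayes, 5 residual degrees of freedom) was fitted to all 39162 probes and 8 arrays, with Benjamini-Hochberg adjustment. The precision is limited by the 2 or 3 arrays per group. The fit was tested on simulated data. Signal was used to sort probes and to pick the brightest per gene, never to compare transcript amounts between probes.

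Hox members, context lists and markers were chosen with earlier results of these data known. Every Hox gene was to be named. Values per array were to be given for the 3 genes per class with the largest called rise and fall in MO-Tbx5a against MO-Ct, the 2 with the largest called rise and fall in the mimic group versus MO-Ct, and the probe of highest mean signal. The values per array of hoxb1a, hoxd10a, hoxd13a, the hoxb8a probe A_15_P131591, cdx1a, mafba and kmt2a lie outside that rule and were added after they were seen. Alternatives were other scalings (quantile, cyclic loess, 75th percentile), a mean log2 value of at least 6, trended and robust variances, the 2 groups alone, fold thresholds of 2 or none, averaged probes, a replicate block and each array left out.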

Additional observations from a re-analysis of the deposited data

How the results depend on the processing

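Counts of called Hox probes in MO-Tbx5a against MO-Ct (53), in the mimic group versus MO-Tbx5a (67) and in the mimic group versus MO-Ct (6) stayed within 1.5 times under the other scalings, the signal minimum, the trended variances, the fit of 2 groups and no fold threshold. A fold change above 2 left 8, 6 and 0 probes. The 8 were 1 anterior and 5 middle probes higher, and 1 posterior probe higher and 1 lower. The excess of lower calls among posterior probes was thus not seen at that threshold. With the probes of a gene averaged, 24, 21 and 1 of 47 genes were called, and the median change in MO-Tbx5a against MO-Ct was 0.28 for middle and -0.35 for posterior genes. Leaving out each array gave 37 to 53, 62 to 70 and 0 to 12 probes. Over these fits the anterior, middle and posterior medians ran from 0.17 to 0.32, 0.0025 to 0.20 and -0.28 to -0.15 in the first comparison, from -0.57 to -0.32, -0.43 to -0.31 and 0.043 to 0.15 in the second and from -0.25 to -0.11, -0.17 to -0.09 and -0.20 to -0.12 in the third. No probe of the naming rule changed sign where it was called. Over the alternatives and comparisons, readings of these probes kept their status in 1057 cases and lost a call in 77. In 12 they gained a call, and in 24 they changed sign without having been called. In the second comparison the posterior counts turned from 17 higher and 12 lower to 13 and 15 without MO-Tbx5a replicate 3. The causes were not tested.

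Replicate numbers were not used to pair the samples. Arrays of the same number in the MO-Tbx5a and mimic groups correlated at -0.01, -0.11 and -0.12 in their deviations. For the MO-Ct arrays the values were 0 and 0.18 with MO-Tbx5a and -0.08 and -0.22 with the mimic group. Deviations from means of 2 or 3 arrays cannot settle whether samples shared a clutch. With a replicate block the counts were 47, 66 and 3. The arrays number 2 or 3 per group, 3 Hox probes had a mean log2 value under 6, and the tbx5a depletion was not measured.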

Other observations

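Other regulators of axial pattern were read from the same fits, which share their arrays. Of 17 probes of 8 hindbrain segmentation genes, 4 passed as higher and 2 as lower in MO-Tbx5a against MO-Ct (35.3% called, below the 38.4% of all probes, median change -0.02, log2). The higher calls were 1 of 2 probes of mafba (1.28), a factor of the caudal hindbrain segments, 1 of 3 of epha4a (1.31), a receptor that keeps segments apart, 1 of 2 of hnf1bb (1.31) and 1 of 3 of hnf1ba (0.61). The lower calls were irx1b (-0.78) and irx7 (-0.63), and egr2b stood at -0.06. The mafba probe read 11.38 and 11.38 in MO-Ct, 12.82, 12.73 and 12.44 in MO-Tbx5a and 11.40, 11.40 and 11.16 in MO-Tbx5a+miR-19a, so the MO-Tbx5a arrays stood above the others, which overlapped.

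Polycomb and trithorax proteins keep Hox genes off or on. Of 45 probes of 19 such genes, 8 were higher and 6 lower in MO-Tbx5a against MO-Ct (31.1% called, below the share of all probes), with a median of -0.003. For kmt2a, a trithorax histone methyltransferase, 4 of 6 probes were higher (0.83 to 1.27), and the same 4 were lower in the mimic group than in MO-Tbx5a (-1.27 to -1.36). The kmt2a probe A_15_P131036 read 10.79 and 10.35 in MO-Ct, 11.90, 11.69 and 11.92 in MO-Tbx5a and 10.56, 10.51 and 10.36 in MO-Tbx5a+miR-19a. Of the 3 suz12b probes, of a Polycomb subunit, 1 was higher (0.89) and 2 lower (-0.46 and -0.61). In the mimic group versus MO-Ct 1 of the 45 probes was higher, in cbx2 (0.73), and 3 were lower, in bmi1b (-0.61), phc2a (-0.40) and phc2b (-0.59). That is 8.89% called, beside 11.2% of all probes. Neither of the 2 probes of geminin, which restrains Hox proteins in mice, was called in any comparison.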
